A study of Mus musculus with 5 samples.

Results

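The genes described here are the 84 nuclear genes for subunits of the oxidative phosphorylation machinery among the 32285 genes counted by single-cell RNA sequencing in leukocytes sorted from Lewis lung carcinoma tumours. They were chosen by symbol: Nduf subunits of complex I (37 genes), the Sdh genes of complex II (4), Uqcr genes of complex III (8), Cox4 to Cox8 genes of complex IV (18) and Atp5 genes of complex V (17). Assembly factors, pseudogenes and mitochondrially encoded subunits were left out by the rule, as was the ATP synthase inhibitor, which the files call Atpif1. Ndufa4 and Ndufa4l2 were counted under complex I by their symbols, although the Ndufa4 protein is now known as a subunit of complex IV.

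The libraries JAG2KO 1 and JAG2KO 2 came from flank tumours that grew after injection of Lewis lung carcinoma cells, a line derived from a lung cancer of the mouse, carrying a guide RNA against JAG2, which encodes a Notch ligand. The libraries Scramble 1, 2 and 3 came from tumours of the same line with a Scramble guide. The labels give 1 procedure for all 5 libraries: tumours were taken at endpoint and dissociated with Liberase, and CD45+ cells that excluded propidium iodide were sorted for 10x 3′ sequencing. The genetic change was therefore in the injected cancer cells and not in the host leukocytes, whose strain and age are not given in the sources used here. The labels do not say whether libraries came from separate mice or whether a line was 1 clone, so each p-value measures only the spread between libraries. Jag2 itself had 316 and 153 UMIs (deduplicated transcript counts) over all kept cells of JAG2KO 1 and 2, against 317, 256 and 297 UMIs in Scramble 1 to 3. In the fibroblast and tumour-like cells that passed the sort it had 0 and 0 UMIs in the JAG2KO libraries against 1, 2 and 2 UMIs in the Scramble libraries, counts too low to check the labels.

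Of 68276 barcodes, 53048 cells were kept, between 7563 and 17791 per library. JAG2KO 2 stood apart, with 17791 cells at a median of 2079 UMIs, whereas the other 4 libraries had medians between 7583.5 and 8456 UMIs per cell. Each pair of libraries shared between 26 and 74 barcodes. Cells were assigned to types by marker genes, none of them a member of the set, and 5.06 to 8.02% of cells per library stayed without a type. Mononuclear phagocytes (macrophages and monocytes) were the bulk of every library, with 7570 and 15536 cells in JAG2KO and 7331, 7935 and 6063 in Scramble. Neutrophils numbered 194 and 248 in JAG2KO against 661, 783 and 739 in Scramble, and T cells 403 and 437 in JAG2KO against 71, 72 and 59 in Scramble. The label "Lung" given as the cell type did not describe these cells, which carried leukocyte markers.

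Oxidative phosphorylation makes most of the ATP of a resting cell. Complexes I and II pass electrons from NADH and succinate to ubiquinone, complex III passes them to cytochrome c, complex IV passes them to oxygen, and complex V uses the resulting proton gradient to make ATP. Complex II also works in the tricarboxylic acid cycle, and succinate metabolism is known for its part in macrophage activation. Mature neutrophils are known to hold few mitochondria and to rely on glycolysis.

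The members were well covered. Only Cox7b2 and Cox8c had 0 UMIs in all libraries, and 5 of 84 members had fewer than 1000 UMIs over all kept cells, among them Cox8b with 6, Cox4i2 with 181 and Ndufa4l2 with 431. The sum of the 84 members is given below in CPM, UMIs scaled so that all genes of a cell type in a library sum to 1000000, and the error is the SD over the 5 libraries. It was 19286 ± 890 in mononuclear phagocytes, 18694 ± 932 in dendritic cells, 20512 ± 1602 in T cells and 21313 ± 1536 in NK cells. The ranges over the 5 libraries overlapped between each pair of these 4 types. B cells had 14209 ± 1342 CPM from 5 to 11 cells per library, and neutrophils had the lowest sum, 8929 ± 624.

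**Figure D1:**
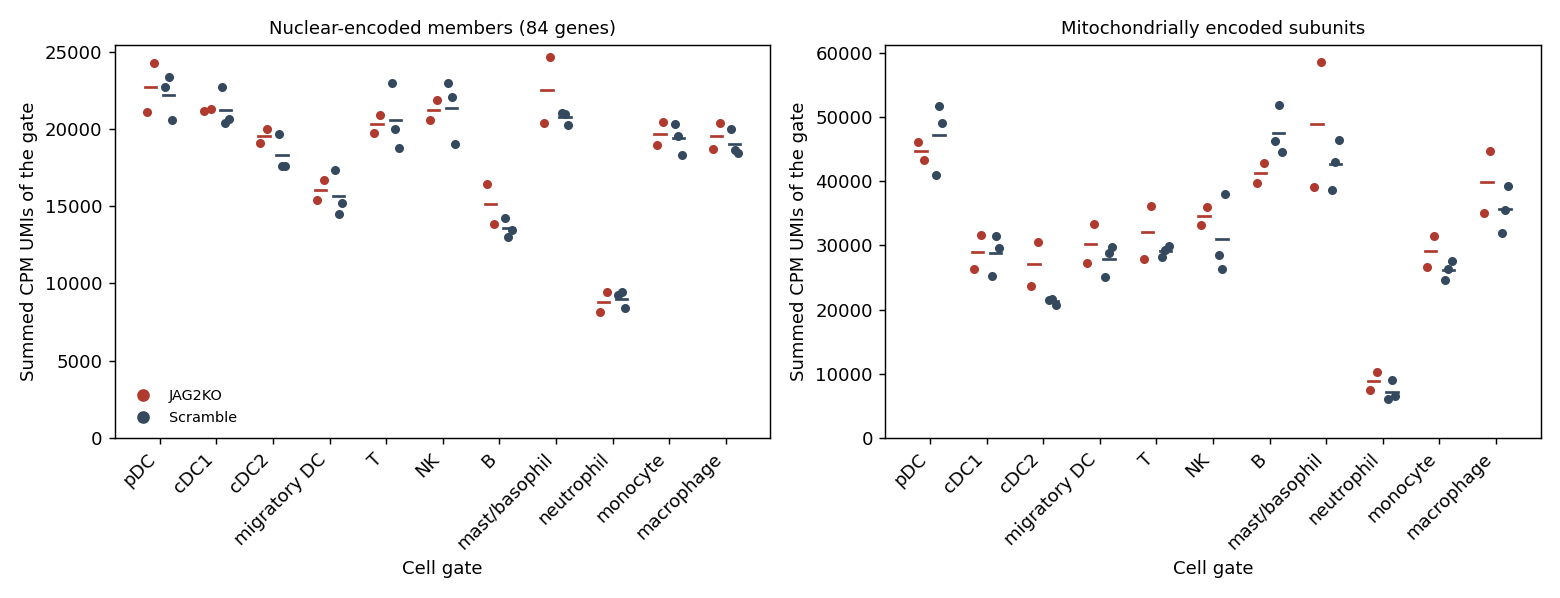
Summed level of the 84 members (CPM, linear axis from 0) by cell type, 1 point per library, with JAG2KO and Scramble libraries drawn apart. Neutrophils sit at 8118 to 9458 in every library, while mononuclear phagocytes sit at 18468 to 20444.

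In neutrophils the set was low as a sum. The summed level was 8118 and 9458 CPM in neutrophils of JAG2KO 1 and 2 and 9252, 9417 and 8400 in neutrophils of Scramble 1 to 3, against 18753 and 20444 in mononuclear phagocytes of the JAG2KO libraries and 20038, 18727 and 18468 in those of the Scramble libraries. Every neutrophil value lay below every phagocyte value, and the ratio within a library was 0.433 to 0.503 with a mean of 0.463. The ratio averaged 0.419 for complex I, 0.384 for complex II, 0.458 for complex III, 0.523 for complex IV and 0.458 for complex V, so no complex kept its level. The 13 mitochondrially encoded subunits, summed, were lower still at a mean ratio of 0.211. All these sums pool the UMIs of the cells of a type. Per cell, the median level of the set was 7890 and 5989 CPM in neutrophils of JAG2KO 1 and 2. It was 8696, 9290 and 8124 in neutrophils of Scramble 1 to 3. JAG2KO 2 was thus the highest by the pooled sum and the lowest by the median per cell. Of its 248 neutrophils, 93 of 500 to 1000 UMIs had 7970 CPM and 138 of 1000 to 2000 UMIs had 6261. Both values lay below the pooled 9458, so the few cells of 2000 UMIs or more raised that sum. Those few cells are part of every pooled neutrophil value of JAG2KO 2 given here, and what they are was not tested.

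Gene by gene, cells of a type were summed per library and neutrophils were compared with mononuclear phagocytes of the same library by edgeR's quasi-likelihood test, which scales libraries by TMM, a trimmed mean over all genes. A gene was called at a Benjamini-Hochberg adjusted p below 0.05 over all genes tested. Of 81 members tested 65 were lower and 3 higher in neutrophils. That is 80.2% of members called lower, against 36.9% of all 13728 genes, and 3.70% called higher, against 23.8% of all genes. The median log2 fold change was -0.64 over the members and -0.46 over all genes. The scaling mattered here: scaled to total UMIs alone, 0 members were higher and 76 lower, at a median of -1.28 over members and -1.09 over all genes.

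Among the complex I members, Ndufa9, an accessory subunit of the peripheral arm, had 12.1 and 9.27 CPM in neutrophils of JAG2KO 1 and 2 and 12.6, 12.1 and 7.94 in neutrophils of Scramble 1 to 3. In mononuclear phagocytes it had 59.1 and 56.6 in the JAG2KO libraries and 58.1, 56.2 and 53.2 in the Scramble libraries. The ranges were far apart, and the log2 fold change was -1.74 (SE 0.21, edgeR adjusted p = 2.55e-16). Ndufa11, a membrane-arm subunit, had 21.2, 24.7, 38.6, 45.7 and 27.0 CPM in neutrophils of JAG2KO 1, JAG2KO 2 and Scramble 1 to 3, against 124, 146, 151, 137 and 129 in phagocytes of the same libraries. Again no neutrophil library reached a phagocyte library, with a log2 fold change of -1.39 (SE 0.14, edgeR adjusted p = 4.49e-21).

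In complex III, Uqcrc1, the core protein 1 subunit, had 36.3, 37.1, 31.4, 33.6 and 19.0 CPM in neutrophils, against 132, 124, 131, 121 and 117 in phagocytes, in the same library order. The log2 fold change was -1.42 (SE 0.15, edgeR adjusted p = 8.78e-21). All 3 genes for the c-ring subunit of ATP synthase, which encode the same mature protein, fell: Atp5g1 by 1.30, Atp5g2 by 1.35 and Atp5g3 by 1.03 on the log2 scale (edgeR adjusted p at most 2.22e-16). In complex II, Sdhc (log2 fold change -1.08), Sdhb (-0.82) and Sdha (-0.61) fell, while the membrane anchor Sdhd had a log2 fold change of 0.07 (edgeR adjusted p = 0.759). Cox7a1, the heart and muscle isoform of a complex IV subunit, was called lower by 1.70 on the log2 scale from 10 neutrophil UMIs.

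The 3 members called higher were Cox8a, a small complex IV subunit, and Atp5md and Atp5l, small membrane subunits of complex V. Cox8a had 499, 807, 652, 619 and 612 CPM in neutrophils, against 618, 770, 713, 655 and 619 in phagocytes, in the same library order. On this plain scale the ranges overlapped, and the log2 fold change of 0.55 (SE 0.10, edgeR adjusted p = 2.34e-07) came with the TMM scaling. Without TMM the log2 fold changes were -0.09 for Cox8a, -0.23 for Atp5md and -0.26 for Atp5l, so their direction depended on the scaling. With TMM they had the 3 highest log2 fold changes of the 81 members.

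Promoter sequences were looked at for some of the members named above. RefSeq windows of 250 bases before to 50 after the start, build GRCm38.p6, matched 68 of the 84 members with 73 windows. Searching both strands for GCGCATGC (the NRF1 core), CCGGAAG (an ETS core, bound by GABPA among others) and AAGATGG (the YY1 core), the NRF1 core was in 13.7% of member windows and in 2.71% of all 32851 windows. The ETS core was in 23.3% of member windows and 8.86% of all windows, and the YY1 core in 15.1% and 6.34%. Member windows also held more CG dinucleotides, with a median of 19 against 7 in all windows, and a match is a description of letters only. Windows of other low members, among them Ndufa9, Atp5g1 and Atp5g2, were matched too and are not shown. Shown are 2 members that were low in neutrophils (Uqcrc1, Ndufa11), 2 that had the highest log2 fold changes there with TMM (Cox8a, Atp5l) and the tissue-restricted Cox7a1, with motif matches in capitals.
Uqcrc1 (chr9:108936398-108936697, + strand): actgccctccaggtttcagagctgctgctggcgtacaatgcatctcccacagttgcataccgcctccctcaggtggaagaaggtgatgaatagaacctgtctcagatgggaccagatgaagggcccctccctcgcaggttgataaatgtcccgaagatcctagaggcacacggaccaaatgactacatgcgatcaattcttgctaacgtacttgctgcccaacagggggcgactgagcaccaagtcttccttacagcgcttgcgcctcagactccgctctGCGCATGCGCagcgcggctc
Ndufa11 (chr17:56717512-56717811, + strand): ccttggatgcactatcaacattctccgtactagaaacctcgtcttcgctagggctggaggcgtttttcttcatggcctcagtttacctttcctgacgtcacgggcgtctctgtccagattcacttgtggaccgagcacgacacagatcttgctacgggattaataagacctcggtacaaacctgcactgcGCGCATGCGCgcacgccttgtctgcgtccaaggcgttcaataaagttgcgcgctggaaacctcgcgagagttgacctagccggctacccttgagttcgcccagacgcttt
Cox8a (chr19:7217567-7217866, - strand): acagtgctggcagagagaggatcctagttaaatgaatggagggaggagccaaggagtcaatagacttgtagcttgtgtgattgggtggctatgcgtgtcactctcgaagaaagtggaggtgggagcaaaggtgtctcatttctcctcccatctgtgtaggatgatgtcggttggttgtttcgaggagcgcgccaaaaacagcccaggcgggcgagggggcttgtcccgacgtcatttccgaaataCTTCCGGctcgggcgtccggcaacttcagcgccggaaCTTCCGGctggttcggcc
Atp5l (chr9:44920693-44920992, - strand): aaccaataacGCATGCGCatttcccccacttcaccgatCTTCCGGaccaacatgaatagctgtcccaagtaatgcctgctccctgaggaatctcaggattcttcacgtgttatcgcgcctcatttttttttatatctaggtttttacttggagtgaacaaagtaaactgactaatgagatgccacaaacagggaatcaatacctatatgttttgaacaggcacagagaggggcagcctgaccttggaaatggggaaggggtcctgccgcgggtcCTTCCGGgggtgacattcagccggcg
Cox7a1 (chr7:30183921-30184220, + strand): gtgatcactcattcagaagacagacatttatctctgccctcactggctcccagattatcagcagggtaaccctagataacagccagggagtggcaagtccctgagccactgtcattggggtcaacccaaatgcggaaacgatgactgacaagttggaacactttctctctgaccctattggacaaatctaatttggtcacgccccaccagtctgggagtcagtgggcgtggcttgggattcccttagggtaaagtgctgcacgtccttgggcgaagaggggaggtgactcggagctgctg
The low pair shown carry the palindromic run GCGCATGCGC, in which the NRF1 core is read on both strands with overlap. The NRF1 core was in 13.7% of member windows, so this pair does not stand for the low members. Atp5l holds an NRF1 core and 2 ETS cores, Cox8a holds 2 ETS cores, and the Cox7a1 window holds none of the 3 motifs. Since the direction of Cox8a and Atp5l depended on the scaling, the motifs are given as letters present and were not set against direction.

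Genes around the pathway were counted from further lists. In neutrophils, all 13 of 13 mitochondrially encoded subunits fell, led by mt-Nd1 (log2 fold change -2.17). Of 18 tricarboxylic acid cycle genes 14 fell and 0 rose, with the NADP-dependent isocitrate dehydrogenase Idh2 at -1.81. Of 45 assembly factors 30 fell and 5 rose, of 10 carrier and cytochrome c genes 8 fell, and of 78 mitochondrial ribosomal proteins 70 fell and 1 rose. Over all genes 36.9% fell and 23.8% rose. By DESeq2 17 assembly factors fell and 5 rose, 5 carrier and cytochrome c genes fell and 1 rose, and 58 mitochondrial ribosomal proteins fell and 1 rose. Without TMM 38 assembly factors fell and 3 rose, and all 10 carrier and cytochrome c genes fell. Of 21 glycolysis genes 18 rose and 0 fell, among them the lactate exporter Slc16a3 at 3.16, the phosphofructokinase Pfkp at 2.96 and the glucose transporter Slc2a1 at 2.78. Without TMM 13 of the 21 rose and 3 fell. The fall was not limited to mitochondrial genes, since 79 of 85 cytosolic ribosomal proteins also fell.

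**Figure D2:**
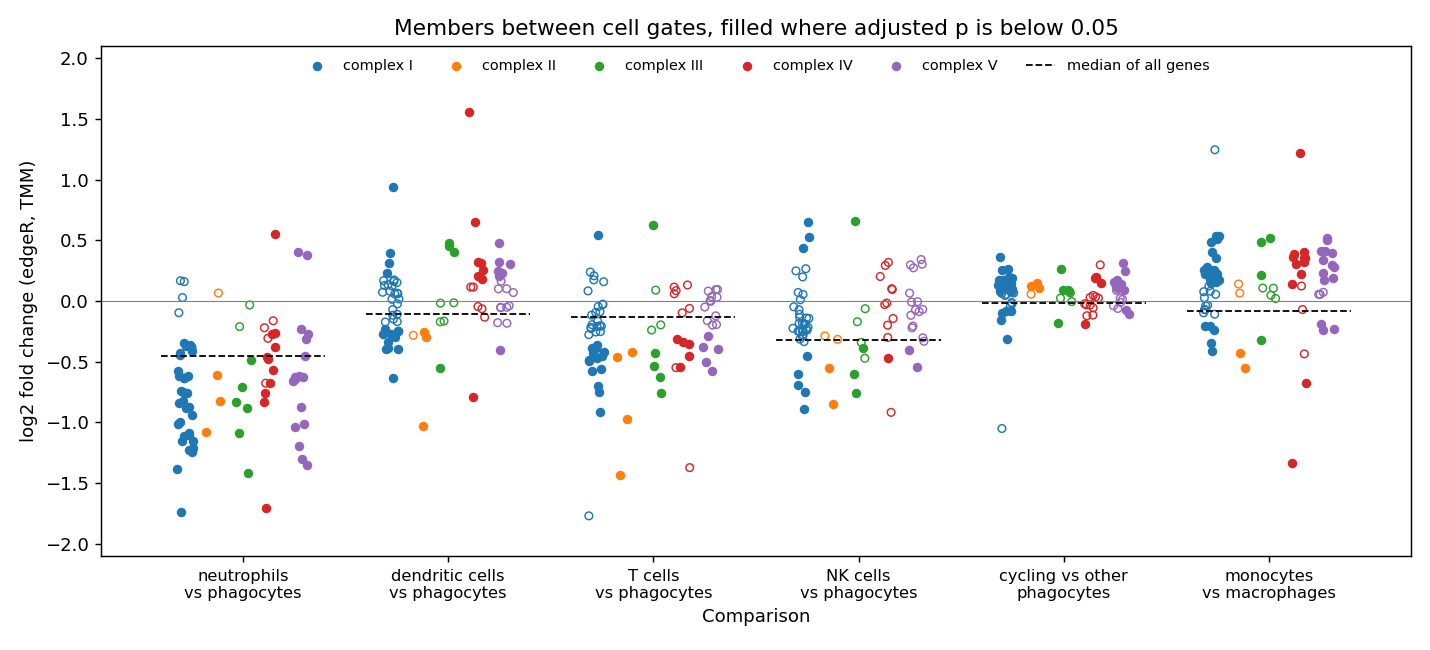
Log2 fold change (edgeR, TMM-scaled) of each tested member by complex in 6 comparisons of cell types, with called members filled and the median of all genes dashed. The axis runs from -2 to 2, and members beyond it are not drawn (1 in the neutrophil, 3 in the dendritic cell, 2 in the T cell and 4 in the NK cell comparison). Most neutrophil points lie below 0, and most monocyte and cycling-cell points lie above it.

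Macrophage markers were detected in neutrophils: the 10 markers summed to 1443 to 3785 CPM in neutrophils and 16059 to 21664 in phagocytes, with all 10 detected in both, and their part in the neutrophil levels was not tested. Neutrophils were the shallowest large type, with median depths of 1636.5 and 1099 UMIs in JAG2KO and 1564, 1832 and 1709 in Scramble, so values were taken in cells of equal depth. Between 2000 and 4000 UMIs per cell, the members summed to 6339 CPM in neutrophils of JAG2KO 1 and 7232, 7976 and 7560 in neutrophils of Scramble 1 to 3, with too few cells in JAG2KO 2. Phagocytes in the same range had 13134 in JAG2KO 1 and 15161, 13293 and 13038 in Scramble 1 to 3, so the ranges stayed apart. Between 1000 and 2000 UMIs the gap was narrower than over all cells in 4 libraries and wider in JAG2KO 2. Neutrophils had 8647 and 6261 in JAG2KO and 9654, 10325 and 8843 in Scramble, against 11697 and 20533 in JAG2KO phagocytes and 10758, 11439 and 9540 in Scramble phagocytes. Each library kept its order, but a Scramble phagocyte value of 9540 lay below 2 of the neutrophil values. Phagocytes of 1000 to 2000 UMIs carried 4.69 to 5.74% mitochondrial UMIs and neutrophils 0.469 to 0.702%. The part of cell quality in these shallow phagocytes was not tested.

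**Figure D3:**
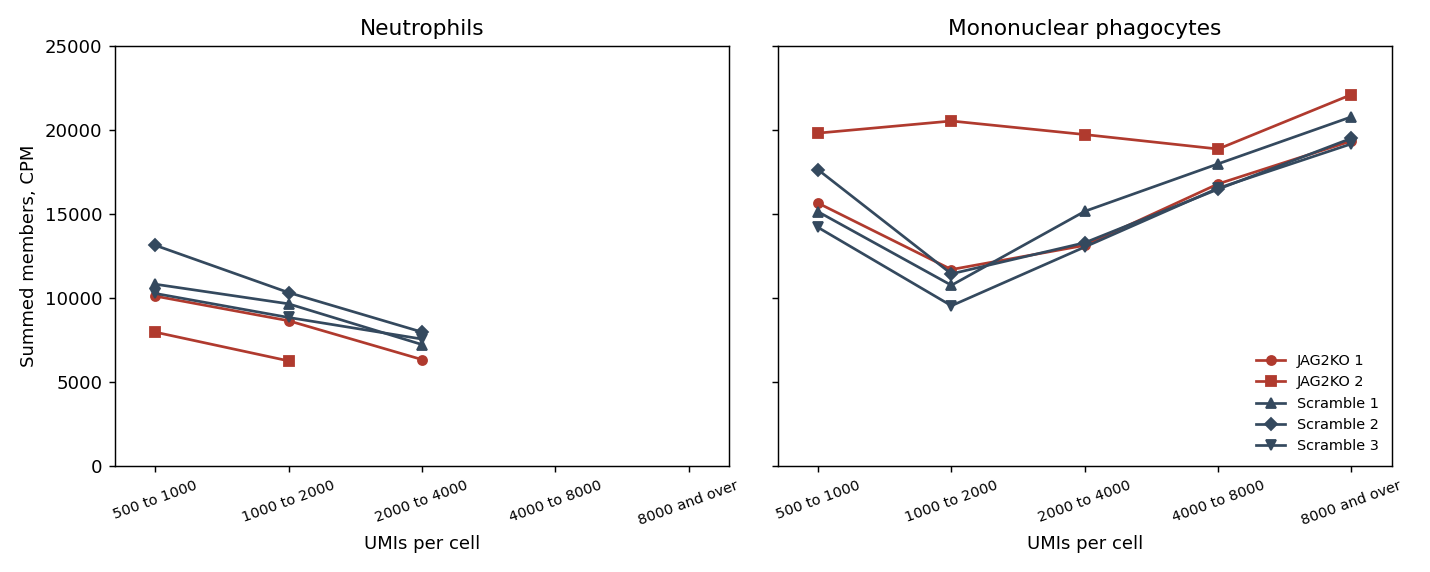
Summed level of the 84 members (CPM) by range of UMIs per cell, in neutrophils and in mononuclear phagocytes, 1 line per library. Phagocytes of JAG2KO 2 stand at 20533 at 1000 to 2000 UMIs, where phagocytes of the other libraries sit between 9540 and 11697.

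In dendritic cells the members moved both ways. The summed level per library was 0.926 to 1.01 times that of mononuclear phagocytes. Of 81 members 20 were higher (24.7%, against 22.3% of all 14028 genes) and 19 lower (23.5%, against 28.3% of all genes), so the share of members called was near that of all genes. The median log2 fold change was -0.01 over members and -0.11 over all genes. Scaled to total UMIs without TMM the split was 12 higher and 37 lower, with sums thinned to equal depth it was 28 and 10, and by DESeq2 26 and 14. The median of all genes was -0.24 without TMM, and that of the members -0.15.

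Ndufa6, a complex I subunit of the LYR protein family, had 330 and 344 CPM in dendritic cells of JAG2KO 1 and 2 and 444, 418 and 384 in those of Scramble 1 to 3. In mononuclear phagocytes it had 204 and 238 in JAG2KO and 206, 219 and 225 in Scramble. All dendritic values were above all phagocyte values (log2 fold change 0.94, SE 0.08, edgeR adjusted p = 3.43e-09). Cox7a2l, which acts in the assembly of supercomplexes of complexes III and IV, rose by 0.65 on the log2 scale (edgeR adjusted p = 1.24e-07), and Uqcrh, the hinge subunit of complex III, rose by 0.48 (edgeR adjusted p = 4.14e-06). Sdhc, the large membrane anchor of complex II, had 60.8, 50.3, 59.5, 60.6 and 48.1 CPM in dendritic cells, against 130, 128, 124, 118 and 124 in phagocytes, with JAG2KO libraries first. It fell by 1.03 on the log2 scale (SE 0.09, edgeR adjusted p = 5.76e-09) with no overlap. Cox7a1 was called lower at -0.79 (edgeR adjusted p = 0.0193), a call lost by DESeq2, with thinned sums, and without Scramble 1 (-0.63), Scramble 3 (-0.68) or JAG2KO 1 (-0.80).

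Dendritic cells differed among themselves. The members summed to 15422 and 16711 CPM in migratory dendritic cells of JAG2KO 1 and 2 and 17359, 14488 and 15239 in those of Scramble 1 to 3. In cDC1, the cross-presenting subset, they summed to 21171 and 21351 in JAG2KO and 22771, 20388 and 20681 in Scramble. Migratory cells were lower in each library, at 0.711 to 0.783 of cDC1, and at a mean ratio of 0.625 for complex I. Ndufa4 averaged 125 ± 46.4 CPM in migratory cells and 154 ± 39.9 in cDC2, the subset that primes helper T cells, whereas cDC1 had 365 ± 43.1. Ndufa6 ran in another order, with 222 ± 53.7 in migratory cells, 523 ± 64.9 in cDC2 and 426 ± 47.0 in cDC1 (SD, n = 5 libraries). These subsets held 24 to 147 cells per library and were not tested.

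T cells and NK cells had summed levels near those of phagocytes, with mean ratios of 1.06 and 1.10. In T cells 2 members were higher (2.47%, against 24.1% of all 13985 genes) and 33 lower (40.7%, against 30.8%), and the median log2 fold change was -0.24 over members and -0.13 over all genes. Without TMM 17 were higher and 13 lower, and with thinned sums 8 and 11, so the direction of the set as a whole followed the scaling. The median without TMM was -0.01 over members and 0.08 over all genes. In NK cells 4 were higher (4.94%, against 12.1% of all 13283 genes) and 15 lower (18.5%, against 21.2%). Their median was -0.20 over members and -0.32 over all genes with TMM, and -0.03 and -0.16 without. Without TMM the NK split was 13 higher and 8 lower, with thinned sums 12 and 0, by DESeq2 4 and 7, and without JAG2KO 2 it was 3 and 9. The NK fit left out Scramble 2, which had 13 NK cells.

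Within that, complex II was low in both lymphocyte types. All 4 Sdh genes were called lower in T cells, led by Sdhc, which had 52.6, 52.9, 61.7, 61.9 and 44.5 CPM in JAG2KO 1, JAG2KO 2 and Scramble 1 to 3, against 118 to 130 in phagocytes. Its log2 fold change was -1.43 (SE 0.13, edgeR adjusted p = 2.06e-09), and the other 3 were Sdhd at -0.97, Sdhb at -0.46 and Sdha at -0.42. In NK cells Sdhc (-0.85, edgeR adjusted p = 0.000326) and Sdha (-0.55, edgeR adjusted p = 0.0231) were called. With thinned sums the calls of Sdhd in T cells (-0.77) and of Sdhc in NK cells (-0.20) were lost. The summed complex II level was 0.618 to 0.810 of that in phagocytes for T cells, 0.690 to 0.876 for NK cells and 0.582 to 0.732 for dendritic cells, while the full set was near 1.

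The hinge subunit Uqcrh went the other way. It had 751 and 976 CPM in T cells of JAG2KO 1 and 2 and 821, 777 and 912 in T cells of Scramble 1 to 3, against 412 and 570 in JAG2KO phagocytes and 417, 445 and 479 in Scramble phagocytes. There was no overlap (log2 fold change 0.62, SE 0.10, edgeR adjusted p = 1.57e-05), and NK cells gave 0.66 (edgeR adjusted p = 2.15e-05). Ndufa13, a complex I subunit also known as GRIM-19, had 327, 329, 397, 362 and 302 CPM in T cells, against 176, 201, 220, 216 and 191 in phagocytes (log2 fold change 0.54, edgeR adjusted p = 0.000166), and 0.65 in NK cells (edgeR adjusted p = 0.000184). Ndufa13 overlaps Yjefn3 on the same strand, as 12 members in all overlap some annotated gene, and the effect of this on their counts was not tested. Ndufc1, a small complex I subunit, was lower in T cells at -0.91 (edgeR adjusted p = 1.20e-06). The membrane-arm subunits Ndufb11 (0.52) and Ndufb7 (0.44) were called higher in NK cells, but the Ndufb11 call was lost without JAG2KO 1 (0.46) and the Ndufb7 call without JAG2KO 1 (0.44), JAG2KO 2 (0.39) or Scramble 1 (0.39).

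Cycling mononuclear phagocytes, those with proliferation markers, had more of the set than the other mononuclear phagocytes. The sum was 20771 and 22413 CPM in cycling cells of JAG2KO 1 and 2 and 20962, 19877 and 20182 in those of Scramble 1 to 3, against 18132 and 19908 in other phagocytes of JAG2KO and 19573, 18210 and 17941 in those of Scramble. The groups overlapped across libraries, but cycling cells were higher within each library, at ratios of 1.07 to 1.15. Of 81 members 39 were higher (48.1%, against 25.7% of all 13867 genes) and 9 lower (11.1%, against 28.2%). The median log2 fold change was 0.08 over members and -0.01 over all genes. Without TMM 60 were higher and 3 lower, at medians of 0.18 and 0.08.

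The leading members were spread over complexes. Ndufa5, a complex I subunit of the peripheral arm, had 92.5, 95.2, 99.1, 96.0 and 89.6 CPM in cycling cells, against 63.2, 71.4, 74.6, 71.2 and 64.1 in other phagocytes (log2 fold change 0.36, SE 0.03, edgeR adjusted p = 1.59e-05), with no overlap. Atp5o, a stalk subunit of ATP synthase, rose by 0.31, Uqcr10 of complex III by 0.26 and Ndufa4 by 0.26 on the log2 scale. Ndufa6 fell by 0.31 (edgeR adjusted p = 1.69e-05), Cox7a2l by 0.19 and Uqcrh by 0.18. Ndufa1 was called lower at -0.15, and its call was lost without TMM (-0.06). Beside the members, 59 of 78 mitochondrial ribosomal proteins rose and 2 fell, 19 of 21 glycolysis genes fell and 0 rose, and 0 of 13 mitochondrially encoded subunits were called in either direction by edgeR. Cycling cells were deeper, with median depths of 14450.5 and 3539.5 UMIs in JAG2KO and 14634 to 14942 in Scramble. A proliferation marker counted with any UMI, whatever the depth of the cell, so deeper cells could pass more easily. All mononuclear phagocytes of at least 8000 UMIs, cycling cells among them, had 19347 and 22106 CPM of the set in JAG2KO. In Scramble they had 20783, 19507 and 19175. The part of depth in the difference was not tested.

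Monocytes had nearly the summed level of macrophages (ratio 0.992 to 1.05) but another composition. Of 81 members 44 were higher (54.3%, against 26.7% of all 13629 genes) and 13 lower (31.9% of all genes were). The median log2 fold change was 0.16 over members and -0.08 over all genes. Scaled without TMM the split was 22 higher and 25 lower, at medians of -0.03 and -0.27, so the balance of directions depended on the scaling. Complex IV had 10 called higher and 2 lower, and complex V 11 higher and 3 lower, whereas complex II had 0 higher and 2 lower.

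Atp5h, a stalk subunit of ATP synthase, had 525 and 687 CPM in monocytes of JAG2KO 1 and 2 and 602, 630 and 573 in monocytes of Scramble 1 to 3, against 435 and 532 in JAG2KO macrophages and 478, 484 and 470 in Scramble macrophages. JAG2KO 1 monocytes lay just below JAG2KO 2 macrophages, but each library had more in monocytes (log2 fold change 0.52, SE 0.05, edgeR adjusted p = 1.95e-07). Ndufa3 and Ndufa6 of complex I each rose by 0.54. Sdhc had 87.8, 67.7, 75.2, 72.3 and 74.9 CPM in monocytes, against 131, 130, 126, 120 and 128 in macrophages (log2 fold change -0.55, SE 0.07, edgeR adjusted p = 2.21e-06), with no overlap. Sdha, the flavoprotein of complex II, fell by 0.43 on the log2 scale (edgeR adjusted p = 4.02e-05). Sdhb (0.06) and Sdhd (0.14) were not called, so 2 of the 4 genes carried the lower complex II level. Around the pathway, 8 of 13 mitochondrially encoded subunits fell and 17 of 21 glycolysis genes rose in monocytes.

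Complex IV has tissue isoforms, and in these cells they were unevenly spread. Cox6a2, the heart and skeletal muscle isoform of the Cox6a subunit (GRCm38 chr7:128205435-128206387, minus strand, overlapping Itgad on the other strand), was concentrated in plasmacytoid dendritic cells, the main producers of type I interferon. It had 1216 and 1771 CPM in those of JAG2KO 1 and 2 and 2246, 2056 and 1927 in those of Scramble 1 to 3, from 23, 13, 10, 9 and 18 cells. Mononuclear phagocytes had 1.36 to 2.87 CPM, and cDC1 and mast cells 0 UMIs. The 73 plasmacytoid cells held 699 of all 1605 Cox6a2 UMIs. The far more numerous mononuclear phagocytes held 157 and 171 in JAG2KO 1 and 2 and 159, 170 and 81 in Scramble 1 to 3. Cells without a type held 20 and 66 in JAG2KO and 14, 10 and 30 in Scramble. Cox6a2 was not among the markers that defined them.

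Of plasmacytoid cells, 22 of 23 and 11 of 13 had a Cox6a2 UMI in JAG2KO and 8 of 10, 8 of 9 and 14 of 18 in Scramble, at median depths of 4928 to 6485 UMIs. Of mononuclear phagocytes 1.89 and 0.998% had one in JAG2KO and 1.91, 2.02 and 1.34% in Scramble, and 0 of 30 to 45 cDC1 per library had one at median depths of 9681 UMIs or more, with exact 95% upper limits of 7.87 to 11.6%. The share was thus at least 77.8% in plasmacytoid cells and at most 2.02% in phagocytes, and the share in phagocytes cannot be told apart from free RNA. Between genotypes, the level averaged 1493 ± 392 CPM in JAG2KO (SD, n = 2) and 2076 ± 160 in Scramble (SD, n = 3), a ratio of 0.719. The groups did not overlap, yet the exact two-sided permutation test gave p = 0.1, the smallest that its 10 splits allow. Poisson intervals at the 95% level, for counting error alone, were 1041 to 1412 for JAG2KO 1 and 1479 to 2103 for JAG2KO 2, and 1851 to 2700, 1649 to 2533 and 1667 to 2215 for Scramble 1 to 3. Those of JAG2KO 2 and the Scramble libraries overlapped. The complex IV sum in plasmacytoid cells was 1.28 to 1.54 times that in phagocytes.

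**Figure D4:**
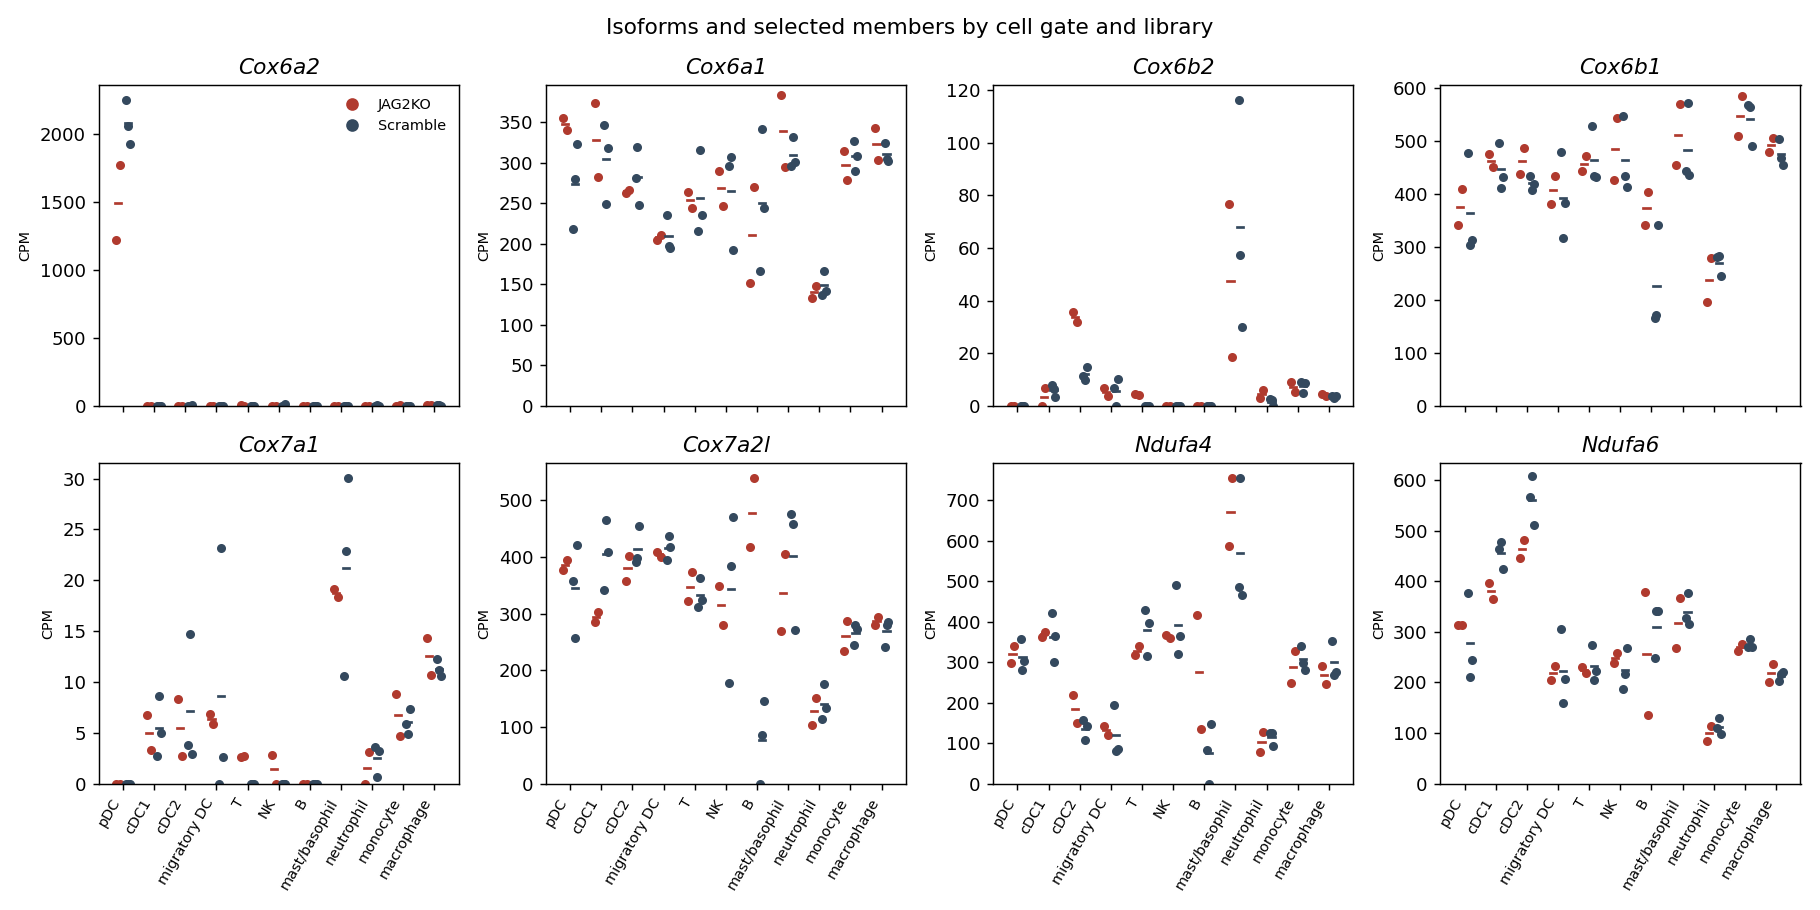
Levels (CPM, each panel with its own axis from 0) of isoform pairs and of Ndufa4 and Ndufa6 by cell type, 1 point per library. Cox6a2 reaches 1216 to 2246 in plasmacytoid dendritic cells and stays below 10 in each other type.

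Cox6b2, known as the testis isoform of Cox6b (GRCm38 chr7:4751792-4753094, minus strand), was rare but patterned. It had 15.9 and 13.4 CPM in dendritic cells of JAG2KO 1 and 2 and 8.66, 5.41 and 8.27 in those of Scramble 1 to 3, against 4.79 and 3.79 in JAG2KO phagocytes and 3.92, 3.07 and 3.93 in Scramble phagocytes. Dendritic cells were above phagocytes in each library (log2 fold change 1.56, SE 0.25, edgeR adjusted p = 2.12e-05, from 77 dendritic UMIs), and monocytes were above macrophages at 1.22 (SE 0.19, edgeR adjusted p = 3.65e-05). In mast cells and basophils it had 76.7 and 18.4 CPM in JAG2KO and 116, 57.2 and 30.1 in Scramble, from 31 UMIs in all. NK cells had 0 Cox6b2 UMIs, and that call (edgeR adjusted p = 0.0493) was lost when any of the 4 libraries was left out and by DESeq2. In cDC2, a pattern chosen after its values were seen, Cox6b2 had 35.5 and 31.9 in JAG2KO and 11.4, 9.82 and 14.8 in Scramble, from 52 UMIs, without overlap and without a test.

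Cox7a1 averaged 11.8 ± 1.58 CPM in macrophages (SD, n = 5). It was called lower in T cells at a log2 fold change of -2.73 from 8 T cell UMIs (edgeR adjusted p = 5.25e-06) and lower in monocytes than in macrophages at -0.68 (SE 0.15, edgeR adjusted p = 0.00104). Cox6a2 was also called lower in monocytes at -1.33 from 11 monocyte UMIs, a call lost without Scramble 1 (-1.26), Scramble 2 (-1.08) or JAG2KO 1 (-1.10). Ndufa4l2, a hypoxia-induced paralogue of Ndufa4, had 14.9 and 11.5 CPM in the fibroblast and tumour-like cells of JAG2KO and 0, 6.66 and 19.5 in those of Scramble. It had 0 UMIs in dendritic cells, where its call was lost by DESeq2 and when any 1 library was left out. Cox4i2, the hypoxia-responsive isoform of Cox4, averaged 0.482 CPM in phagocytes. In dendritic cells the ubiquitous partners Cox6a1 (-0.13, edgeR adjusted p = 0.135) and Cox6b1 (-0.05, edgeR adjusted p = 0.613) were not called. In T cells both were called lower, Cox6a1 at -0.54 (edgeR adjusted p = 0.000247) and Cox6b1 at -0.32 (edgeR adjusted p = 0.0133). In NK cells Cox6a1 was called lower at -0.47 (edgeR adjusted p = 0.0135) and Cox6b1 was not called (-0.20, edgeR adjusted p = 0.331).

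The comparison the study was built for, JAG2KO against Scramble, called no member in any cell type tested. The types tested were mononuclear phagocytes, neutrophils, dendritic cells, T cells and NK cells. In mononuclear phagocytes 81 members were tested by edgeR and 0 were called, where 0.64% of all 14367 genes (92) were. At an unadjusted p below 0.05 there was 1 member by edgeR and 1 by DESeq2, which also called 0, and by edgeR 15.4% of all genes were below it. The median log2 fold change was 0.02 over the members, and 77 of 81 lay within 0.2 of 0. The 95% intervals of 80 members lay within a 2-fold change either way, and those of 76 within 1.5-fold, so larger changes of most members were outside the measured intervals. By complex the medians were -0.04 for I, 0.06 for II, 0.06 for III, 0.05 for IV and 0.03 for V.

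Single libraries moved this median. Without JAG2KO 1 it was 0.07, with 7 members at an unadjusted p below 0.05, and without JAG2KO 2 it was -0.09, also with 7. With cells of at least 4000 UMIs only, an alternative added after seeing the data, it was 0.02. The call count was 0 each time.

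**Figure D5:**
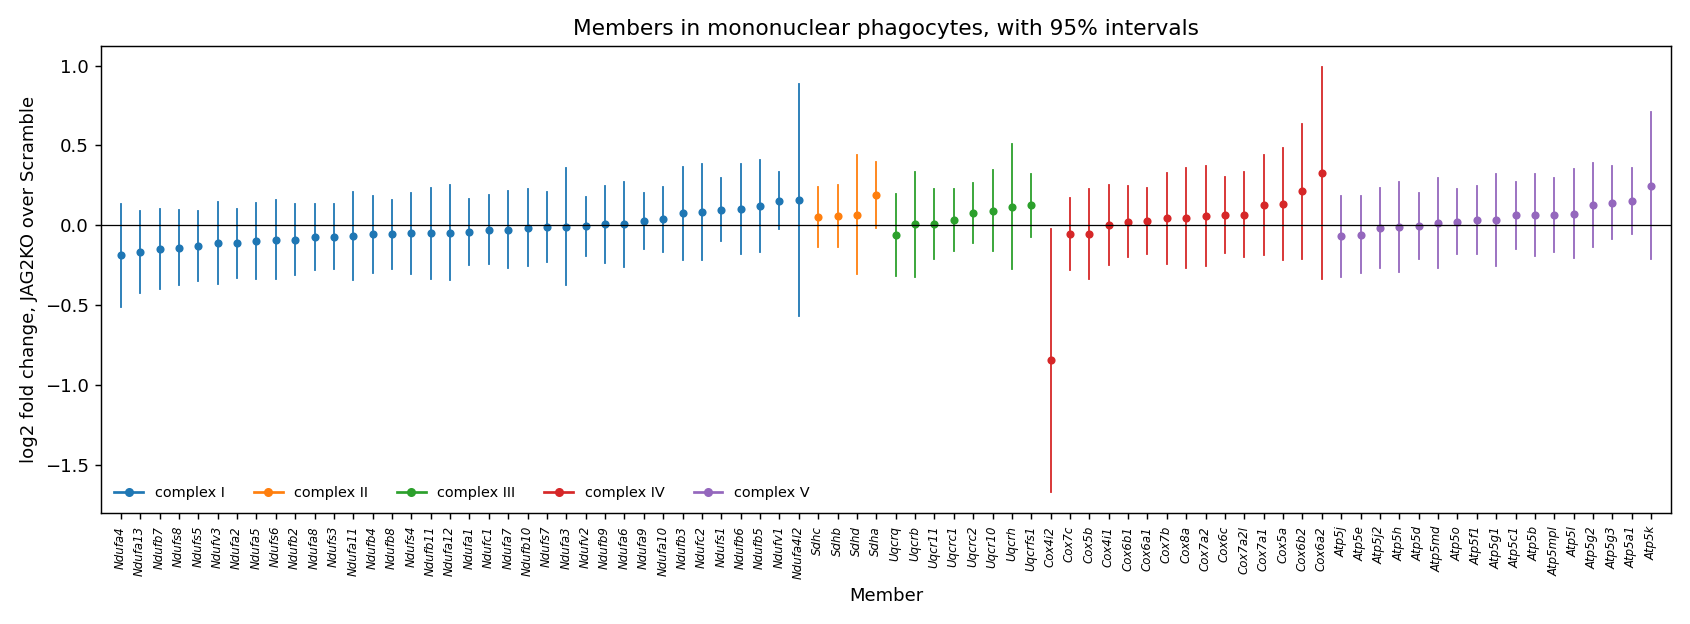
Log2 fold change of JAG2KO over Scramble in mononuclear phagocytes for tested members (edgeR), with 95% intervals, ordered by complex; 1 of the 81 is not drawn. Each interval drawn lies within a 2-fold change except that of Cox4i2, which is centred at -0.85 and is the widest.

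The members with the smallest p-values give the size of what was measured. Sdha had 126 and 134 CPM in JAG2KO and 114, 108 and 114 in Scramble, which did not overlap, with a log2 fold change of 0.19 (SE 0.09, edgeR adjusted p = 0.369). Ndufv1, the NADH-binding flavoprotein of complex I, had 55.0 and 53.9 in JAG2KO and 49.2, 49.8 and 45.3 in Scramble (0.15, edgeR adjusted p = 0.405). Atp5a1, the catalytic-head alpha subunit of ATP synthase, had 424 and 428 in JAG2KO and 383, 363 and 386 in Scramble (0.15, edgeR adjusted p = 0.488). In these 3 genes both JAG2KO libraries were the highest, by margins that did not pass the test over all genes. Cox4i2 had 0.277 and 0.386 in JAG2KO and 0.556, 0.724 and 0.469 in Scramble from 167 UMIs, without overlap (-0.85, SE 0.35, edgeR adjusted p = 0.311). Ndufa13 (-0.17), Ndufb7 (-0.15), Ndufs8 (-0.14) and Ndufs5 (-0.13) were negative, and Atp5g3 (0.14) and the Rieske protein Uqcrfs1 (0.13) positive. Ndufa13 had 176 and 201 in JAG2KO against 220, 216 and 191 in Scramble, and overlapped.

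In the other types tested the call count was 0 too. In neutrophils 76 members were tested and 2 had an unadjusted p below 0.05 (1 by DESeq2). Of all 6734 genes 8.87% had such a p and 0.624% were called. Uqcrc2, the core protein 2 subunit of complex III, had 63.6 and 46.4 CPM in JAG2KO neutrophils and 34.1, 27.5 and 23.0 in Scramble neutrophils, without overlap. Its log2 fold change was 1.02 (SE 0.33, edgeR adjusted p = 0.242) from 144 UMIs. Of the 76 neutrophil intervals 12 lay within 1.5-fold, and for the others a change of that size in at least one direction was within the interval. Macrophage markers summed to 1443 to 2803 CPM in JAG2KO neutrophils and 2808 to 3785 in Scramble neutrophils, and their part in these differences was not tested.

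In dendritic cells 77 members were tested, 2 had an unadjusted p below 0.05 (1 by DESeq2). Of all 8251 genes 12.7% had such a p and 1.47% were called. The subsets differed in number between the genotypes, with 147 and 112 migratory cells in JAG2KO against 44, 40 and 52 in Scramble, 92 and 50 cDC2 against 34, 24 and 39, and 39 and 30 cDC1 against 37, 45 and 43. Ndufa9 had 47.4 and 36.9 CPM in JAG2KO dendritic cells and 66.0, 66.0 and 63.2 in Scramble dendritic cells, without overlap (log2 fold change -0.57, edgeR adjusted p = 0.169). Ndufa9 had the smallest p of the dendritic members, and its values by subset come from the same cells and were not tested. By subset, Ndufa9 had 20.4 and 17.5 CPM in migratory cells of JAG2KO against 48.5, 42.6 and 44.0 in those of Scramble, from 72 UMIs and without overlap. In cDC1 it had 94.0 and 59.2 in JAG2KO and 85.9, 93.1 and 84.3 in Scramble, and in cDC2 55.6 and 45.3 in JAG2KO and 57.0, 34.4 and 47.2 in Scramble, which overlapped in both. Over all dendritic cells Cox6b2 had a log2 fold change of 1.01 (edgeR adjusted p = 0.201). Among these subsets it was highest in cDC2, as given above, and the part of the subset shares in either difference was not tested. In T cells 75 members were tested, 0 had an unadjusted p below 0.05 by either tool. Of all 5198 genes 7.93% had such a p and 0.731% were called. T cell composition differed between the genotypes, with 154 and 176 CD8 T cells in JAG2KO against 5, 6 and 8 in Scramble, and in T cells without Cd8 UMIs 0 of 75 members were called as well, where 0.0834% of all 4798 genes were. In NK cells 74 members were tested, 1 had an unadjusted p below 0.05 (0 by DESeq2), 3.14% of all 2901 genes had such a p and 0.0345% were called, and 0 intervals lay within 1.5-fold.

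A direct test of whether the JAG2KO difference itself differed between neutrophils and phagocytes called 0 of 81 members by edgeR, with 7 at an unadjusted p below 0.05. Of all 13728 genes 6.71% had such a p and 0.896% were called. The lists around the pathway gave 0 calls between genotypes in phagocytes, dendritic cells, T cells and NK cells. In phagocytes their medians were 0.19 over the 13 mitochondrially encoded subunits and -0.17 over 21 glycolysis genes. In neutrophils 1 of 12 mitochondrially encoded subunits, mt-Nd5, was called higher at 1.10 (SE 0.25, edgeR adjusted p = 0.0354). Unlike the named members, mt-Nd5 was not followed through DESeq2, the other scalings or the fits without single libraries. The mitochondrially encoded sum in phagocytes was 34740 and 44426 CPM in JAG2KO and 31648, 35178 and 38551 in Scramble, which overlapped, and JAG2KO 2 was the highest.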

How the data were processed

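The deposited files hold, for each of the 5 libraries, whole-number counts of UMIs per gene and cell barcode, written by cellranger 6.0.0 per the file headers. The submitters' processing notes name GRCm38, mm10 and Seurat, and the labels' protocols name the 10x 3′ v2 kit. Barcodes without a cell had been removed by the authors, per the series' design text.

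From these counts, cells entered the analysis if they had 500 or more UMIs, 250 or more genes and no more than 10% of UMIs from mitochondrial genes. A score from simulated doublets was used to remove the top 8% of cells per library. Cells were assigned to types by marker genes (at least 3 markers detected, a share of at least 0.3 and a lead of 0.15 over the next type). Counts were summed per library and type (at least 20 cells) and tested with edgeR 4.0.16 (R 4.3.3; TMM, default expression filter, Benjamini-Hochberg threshold 0.05). Genotypes were compared with no further term, and cell types with the library as a term. SEs and 95% intervals come from the same fit. The alternatives were DESeq2 1.42.0, other scalings and filters, thinned sums, and leaving out each library. The fits were tested on simulated counts.

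Total depth was 84788907 to 111680641 UMIs per library. The members and lists were chosen with earlier results of these data known. Members named with values are the 10 with the smallest p between genotypes, up to 4 called each way per cell type comparison, and the isoform families, from the rule set with the design. The sequences are RefSeq promoter windows, and protein sequences were not used here. Values of some single genes are not reported here.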

Additional observations from a re-analysis of the deposited data

How the results depend on the processing

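Between genotypes, 0 members were called in each of the 5 cell types under each alternative that could be run: DESeq2, no low-count filter, total-UMI scaling without TMM, thinned sums, other cell filters, doublets kept, a strict gate, and each library left out. With the replicate number as a block, 0 members were called and the phagocyte median was -0.002. Same-numbered libraries deviated together by r = 0.163 and 0.203 across genes in phagocytes. In neutrophils, dendritic cells and T cells r was less than 0.06. Deviations of 2 JAG2KO libraries from their mean mirror each other. JAG2KO 2 with Scramble 1 thus gave -0.163 and JAG2KO 1 with Scramble 2 gave -0.203 in phagocytes, which are not separate observations. With 2 pairs the numbers were not taken to pair samples. The block could not be fitted in NK cells. Leaving out Scramble 1 or Scramble 3 there leaves a single Scramble library, assumed to vary like the others. For cell types, the count of called members stayed within 1.5 times except in T cells (35), where thinned sums gave 19, and NK cells (19), where DESeq2 gave 11 and thinned sums 12. Leaving out 1 library gave 12 to 19 in NK cells, lowest without JAG2KO 2. The cause was not tested. Of 875 single-gene values recomputed, 838 kept direction and side of the threshold, 34 lost their call and 3 reversed, all in neutrophils without TMM: Cox8a (-0.09), Atp5md (-0.23) and Atp5l (-0.26). Cells of at least 4000 UMIs were too few in neutrophils and NK cells, so that alternative was not run there. Depth limits the rare isoforms, among them Cox8b, Cox4i2 and Ndufa4l2 with under 1000 UMIs each.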

Other observations

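Of 19 regulators of mitochondrial biogenesis tested in neutrophils against mononuclear phagocytes, 4 rose and 10 fell by edgeR, where 23.8% of all genes rose and 36.9% fell. Without TMM 1 rose and 15 fell. Gabpb1, a subunit of the ETS-type factor GABP, had a log2 fold change of 2.29 (SE 0.19) and Nrf1, the factor that binds the NRF1 core, 0.96 (SE 0.17), both higher, although the call of Nrf1 was lost without TMM (0.33), while Tfam, which packages and transcribes mitochondrial DNA, was lower at -1.06 (SE 0.31) and the coactivator Ppargc1b at -1.49 (SE 0.47). Among the assembly factors that rose in neutrophils was Cox17, a copper chaperone of complex IV, at 2.52 (SE 0.11). In cycling against other mononuclear phagocytes 11 of 19 regulators rose and 1 fell (25.7% and 28.2% of all genes), with Tfam at 0.34 (SE 0.04) and Gabpb1 at 0.44 (SE 0.06).

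Of 85 cytosolic ribosomal proteins, 80 were higher in dendritic cells than in mononuclear phagocytes (22.3% of all genes were), 62 in T cells (24.1% of all genes) and 79 in NK cells (12.1%). In monocytes 70 were higher than in macrophages (26.7% of all genes). Without TMM these counts were 76, 76, 80 and 58. In cycling cells 47 were lower and 5 higher (28.2% and 25.7% of all genes), but 16 lower and 11 higher without TMM. Of 12 genes of dissociation and stress responses, 10 were higher in neutrophils and 11 in monocytes, while 11 were lower in cycling cells, and without TMM 6, 9 and 11. The part of either group of genes in the members' differences was not tested.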
